A study of Mus musculus with 6 samples.

Results

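The genes described here encode the nuclear-encoded subunits of the mitochondrial respiratory chain, and they were read from microarrays of mouse stellate ganglia. They were taken as every probe set whose single platform symbol begins with Nduf followed by a, b, c, s or v, with Uqcr, with Atp5 or with Cox and a digit from 4 to 8, or is Cyc1 or 1 of the 4 Sdh genes. This gave 180 of 45037 probe sets and 91 of 18193 genes. A probe set is a group of short probes against 1 transcript. A probe set was tested where its mean log2 intensity over the 6 arrays was 4 or more, and each gene was represented by its probe set of highest mean, which left 83 members among 9955 tested genes. Of these 83, 73 were common subunits, 8 were complex I assembly factors whose symbols begin with Ndufaf, and 2 were tissue isoforms of cytochrome c oxidase, Cox7a1 and Cox8b.

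The other 8 members had no probe set above this floor. They were the common subunits Cox7c and Ndufb4, the muscle isoform Cox6a2, and Cox4i2, Cox6b2, Cox7b2, Cox8c and Ndufa4l2, which are paralogs of restricted expression. The probe set of Cox7c averaged 3.50 and lay just under the floor. That of Cox8b averaged 5.69 and was the dimmest to represent a tested member. A further 8 probe sets matched the rule among several symbols and were not used. Whether any of these covers Cox7c or Ndufb4 was not examined. A value under the floor was not read as absence of the transcript.

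Both stellate ganglia of 1 animal gave the RNA for each array, so the replicate is the animal. The mice were male and of strain C57/Bl6, and carried no transgene or deletion named in the labels. Ganglia were taken from 3 animals 8 weeks after transverse aortic constriction (TAC), a narrowing of the aortic arch that raises the load on the left ventricle, and from 3 sham-operated animals. The values are the authors' GCRMA intensities, taken here as log2, and the arrays carry the letters A, B and C in their titles. Correlations between arrays over tested probe sets were 0.98 to 0.99. The defining markers of sympathetic neurons were bright on every array, with a mean over 13 measured markers of 12.74 to 12.81 in sham and 12.87 to 12.89 in TAC. Levels of different genes come from different probes and are not compared with each other.

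The respiratory chain passes electrons from NADH through complex I, or from succinate through complex II, by way of ubiquinone to complex III and by way of cytochrome c to complex IV, which reduces oxygen. Complexes I, III and IV pump protons across the inner mitochondrial membrane, and complex V, the ATP synthase, lets them return and makes ATP. Most subunits are encoded in the nucleus and imported, and a few are encoded by mitochondrial DNA. Neurons depend on this chain for the ATP that drives ion pumping and transmitter uptake. Several subunits of complex IV exist as a common isoform and as a second isoform used in heart, skeletal muscle or brown fat.

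Promoter sequences were set beside the values because common subunits are known targets of the factors NRF-1 and GABP. In the 250 bases before the annotated start, from RefSeq for build GRCm38.p6, the NRF-1 core GCGCANGCG was found on either strand in 12 of 63 common subunits with a window (19%), against 8% of 17492 protein-coding genes. The ETS core CCGGAAG, a core that GABP recognises, was found in 12 of 63 (19%), against 10.2% of all genes. At least 1 of both cores was present in 20 of 63 (31.7%), against 16.8%. The letters AAGGTCA, which ERR nuclear receptors recognise, were found in 5 of 63 (7.94%), against 4.18%. A match is a description of letters and not of a bound site, and the searched motifs may overlap. Windows of 74 of the 91 members were matched by symbol.

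The 4 windows printed here show the common isoform Cox6a1, the tissue isoforms Cox7a1 and Cox8b, and Atp5e, the common subunit with the lowest difference after TAC. Capitals mark NRF-1 and ETS cores. The window of Cox6a1 lies at chr5:115348959-115349208 on the minus strand, that of Cox7a1 at chr7:30183921-30184170 on the plus strand, that of Cox8b at chr7:140900447-140900696 on the minus strand, and that of Atp5e at chr2:174464102-174464351 on the minus strand. Each is written 5′ to 3′ in the direction of the gene and ends at the base before the start.
Cox6a1: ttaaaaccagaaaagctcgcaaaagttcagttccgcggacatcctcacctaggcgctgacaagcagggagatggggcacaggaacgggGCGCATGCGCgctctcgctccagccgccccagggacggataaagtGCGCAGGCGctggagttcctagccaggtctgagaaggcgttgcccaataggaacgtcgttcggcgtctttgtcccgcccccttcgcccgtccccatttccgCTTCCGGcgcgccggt
Cox7a1: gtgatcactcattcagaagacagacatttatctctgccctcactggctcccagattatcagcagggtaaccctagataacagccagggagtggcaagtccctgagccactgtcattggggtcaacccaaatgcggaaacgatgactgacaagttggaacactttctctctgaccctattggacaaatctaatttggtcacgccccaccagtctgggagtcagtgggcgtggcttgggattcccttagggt
Cox8b: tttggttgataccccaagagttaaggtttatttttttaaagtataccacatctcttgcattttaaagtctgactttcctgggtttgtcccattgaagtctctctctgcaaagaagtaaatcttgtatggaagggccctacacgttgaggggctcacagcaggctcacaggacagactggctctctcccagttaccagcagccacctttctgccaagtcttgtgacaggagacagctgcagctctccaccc
Atp5e: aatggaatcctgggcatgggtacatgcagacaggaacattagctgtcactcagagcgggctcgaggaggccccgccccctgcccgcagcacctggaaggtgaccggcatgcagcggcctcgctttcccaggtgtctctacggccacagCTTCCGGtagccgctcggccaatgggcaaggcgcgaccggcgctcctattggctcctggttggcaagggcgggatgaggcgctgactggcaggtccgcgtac
The Cox6a1 window held 4 matches, with positions counted from the base before the start as -1. A pair of overlapping NRF-1 matches on opposite strands together cover -162 to -153. Another NRF-1 match lies from -117 to -109, and an ETS core lies from -16 to -10. Atp5e held 1 ETS core from -102 to -96. The windows of Cox7a1 and Cox8b held neither core.

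Transcripts of the common subunits were at nearly the same level in TAC and sham ganglia. Of the 73 common subunits, 27 had a higher and 46 a lower mean after TAC, and the median log2 difference was -0.02, against 0.02 over all 9955 tested genes. The differences ran from -0.34 for Atp5e, the epsilon subunit of the ATP synthase, to 0.24 for Ndufs4, an accessory subunit of complex I. Adjusted by Benjamini-Hochberg over all tested probe sets, limma called 0 of 17550 probe sets (0%) and so 0 members, with a smallest adjusted p of 0.516 among the members. At an unadjusted p under 0.05, limma gave 2 of the 73 (2.74%), both lower, against 872 of all tested genes (8.76%), of which 541 (5.43%) were higher and 331 (3.32%) lower. No common subunit differed by 0.5 or more on the log2 scale, against 345 of all tested genes (3.47%).

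These differences were measured closely. The median standard error over the common subunits was 0.09, from 0.07 to 0.16, and limma's 95% interval lay within 0.5 of 0 for 70 of 73, which corresponds to a 1.41-fold change either way. The intervals of Atp5e, Cyc1 and Ndufs4 reached beyond 0.5, and all 73 lay within 1. The median SD within groups was 0.09, against 0.14 over all tested genes and 0.11 over the 2867 genes with a mean of 9 or more. Over all 6 arrays, 70 of 73 subunits spanned less than 0.5, with a median span of 0.25. The number of arrays, 3 against 3, limits what adjusted p-values can call.

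**Figure D1:**
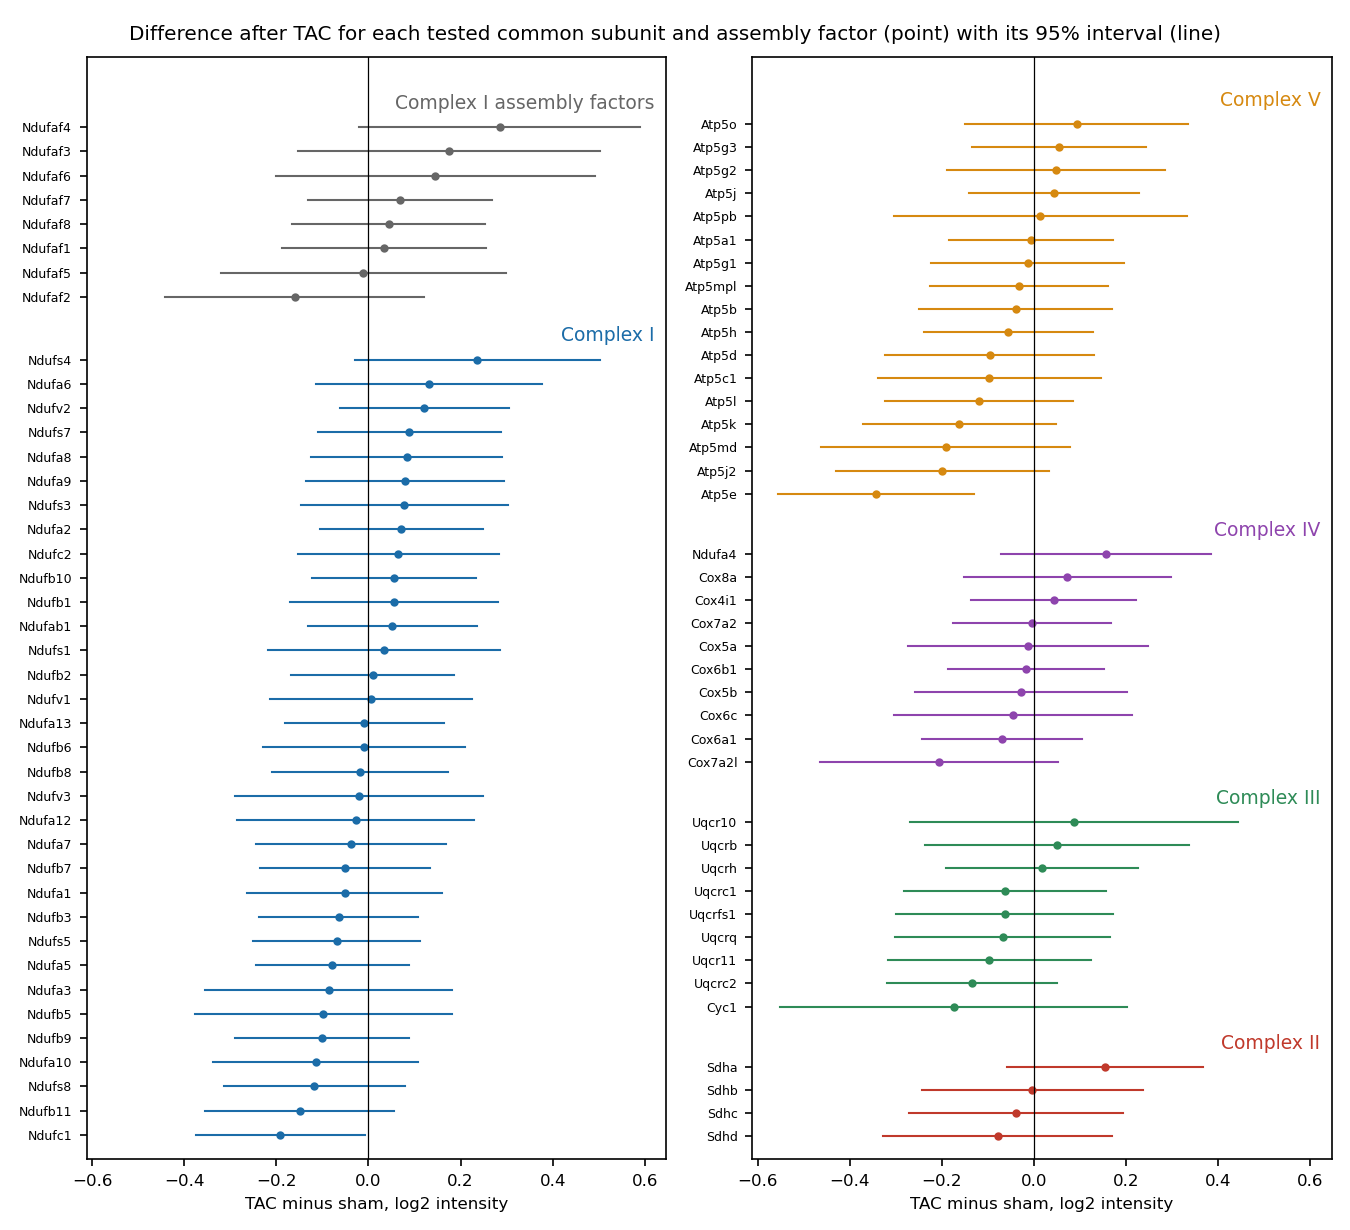
Each point is the TAC minus sham difference of 1 tested common subunit or assembly factor in log2 intensity, with limma's 95% interval as a line, grouped by complex. The points of the common subunits lie between -0.34 and 0.24, and the intervals of Atp5e and Ndufc1 alone leave out 0 before adjustment.

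The levels of the common subunits also differed between animals of 1 group. The median deviation of the common subunits from their own mean was -0.05 on sham A, 0.02 on sham B and 0.06 on sham C, and in TAC -0.02 on A, 0.02 on B and -0.03 on C. Over all tested genes the same medians ran from -0.02 to 0.01. Of the 73 subunits, 27 were lowest on sham A and 23 were highest on sham C, while sham C was the lowest array for 1. Without sham C the median difference turned from -0.021 to 0.015, with 41 subunits higher and 32 lower. Sham C also had the highest mean of brown fat markers, 5.45, of general fat markers, 6.88, and of skeletal muscle markers, 5.95. The part of these tissues in the level of the common subunits was not tested.

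**Figure D2:**
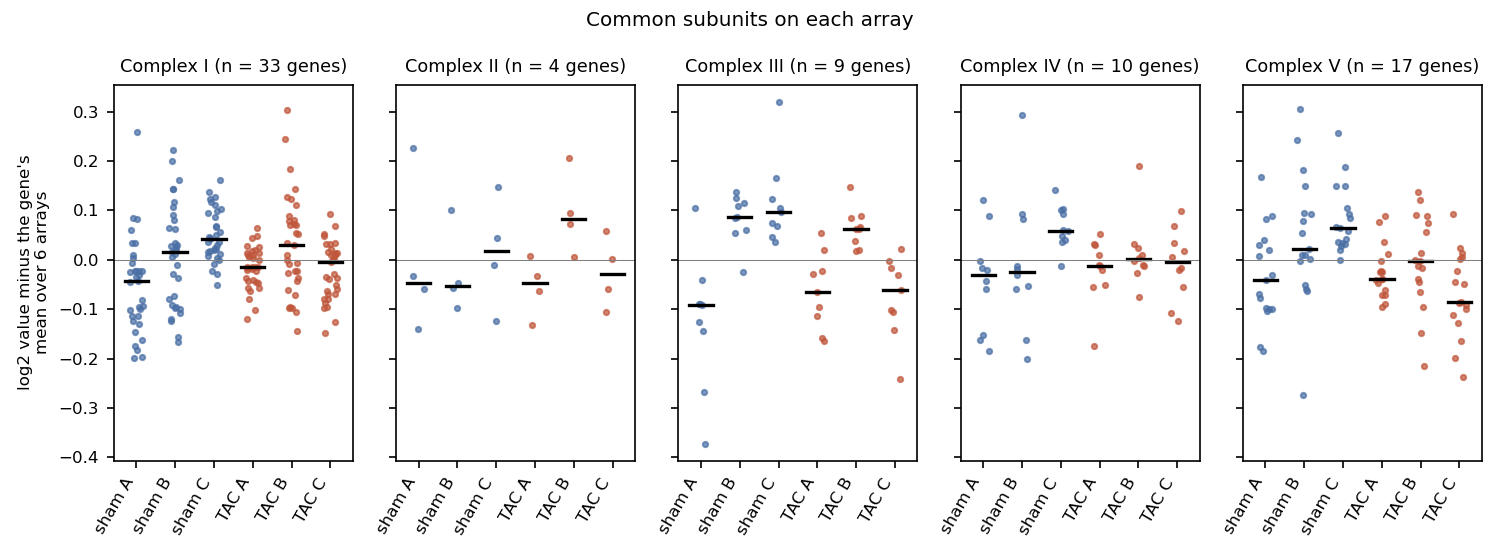
Each point is 1 common subunit on 1 array, as its log2 value minus its own mean over the 6 arrays, and each bar is the median of a complex. Complex III shows the widest shifts, with medians of -0.09 on sham A and 0.10 on sham C, and the bars of the sham and TAC arrays overlap in all 5 complexes.

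In complex I, the NADH dehydrogenase, 15 of 33 tested subunits were higher and 18 lower, with a median of -0.01. The 6 nuclear core subunits, which hold the flavin and the iron-sulphur clusters, had 5 differences above 0 and 1 below, with a median of 0.06. That split was 3 and 3 when arrays were centred on their medians or sham A was left out. The 11 accessory subunits of the a series had a median of -0.03, the 13 tested of the b and c series -0.02, and the 3 of the s and v series -0.02. None of these groups held a called member.

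Ndufc1, a small subunit of the membrane arm, measured 11.998, 12.055 and 12.125 on the sham arrays, in the order of their letters, and 11.918, 11.820 and 11.865 after TAC. Every TAC array was below every sham array. The difference was -0.19 (SE 0.08), with an unadjusted limma p of 0.0432 and an adjusted p of 0.546. A second probe set of Ndufc1 gave -0.15, with groups that overlapped.

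Ndufs4, which sits near the NADH-oxidising end of the peripheral arm, was the subunit of complex I with the highest difference. It measured 9.23, 9.27 and 9.43 in sham and 9.45, 9.73 and 9.46 in TAC, so that the groups were separated by a narrow margin. The difference was 0.24 (SE 0.11, limma adjusted p = 0.556). Both other tested probe sets of Ndufs4 gave the opposite sign, at -0.20 and -0.20, and the mean over its probe sets was -0.05.

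Ndufv2, the iron-sulphur subunit beside the flavin, measured 11.52, 11.62 and 11.62 in sham and 11.67, 11.77 and 11.68 in TAC, a difference of 0.12 (SE 0.08, limma adjusted p = 0.622). Its other probe sets gave -0.04 and -0.05. Ndufb11, a membrane arm subunit, measured 11.95, 12.17 and 12.01 in sham and 11.91, 11.90 and 11.87 in TAC, a difference of -0.15 (SE 0.09). A second probe set of Ndufb11 gave -0.15 as well, and the last -0.07. Ndufa5, a peripheral arm subunit, differed by -0.08 (SE 0.07) with the smallest spread of all common subunits, a pooled SD of 0.03. Ndufb6, another membrane arm subunit, differed by -0.01 (SE 0.09).

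Complex II, succinate dehydrogenase, has 4 subunits, all nuclear, and also works in the citric acid cycle. Their median difference was -0.02, with 1 higher and 3 lower. Sdha, the flavin subunit that oxidises succinate, measured 10.92, 10.94 and 10.86 in sham and 10.95, 11.19 and 11.04 in TAC. The groups did not overlap, although TAC A lay just above sham B, and the difference was 0.15 (SE 0.09, limma adjusted p = 0.599). A second probe set of Sdha gave -0.06. The iron-sulphur subunit Sdhb differed by -0.004 (SE 0.10). The membrane anchors Sdhc and Sdhd differed by -0.04 (SE 0.10) and -0.08 (SE 0.10).

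Complex III, the cytochrome bc1 complex, had 9 tested subunits, 3 higher and 6 lower, with a median of -0.06. Both core proteins, Uqcrc1 and Uqcrc2, and both nuclear-encoded redox subunits, Cyc1 and Uqcrfs1, were below 0, and remained so under the other scalings and without each array in turn. Uqcrc2 measured 11.67, 11.62 and 11.60 in sham and 11.45, 11.58 and 11.46 in TAC, a difference of -0.14 (SE 0.08, limma adjusted p = 0.595). Its second probe set gave 0.12, so the direction depended on the probe set.

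Cyc1, cytochrome c1, was the most variable common subunit, at 10.71, 10.93 and 11.17 in sham and 10.68, 11.00 and 10.61 in TAC. Its groups overlapped, its pooled SD was 0.22, and its difference was -0.17 (SE 0.16, limma adjusted p = 0.708). Uqcr10, a small supernumerary subunit, measured 9.53 on sham A and 9.92 to 10.04 on the other 5 arrays, and Uqcrb, another small subunit, 13.11 on sham A and 13.36 to 13.51 on the others. Their differences of 0.09 (SE 0.15) and 0.05 (SE 0.12) became -0.08 and -0.07 without sham A.

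Complex IV, cytochrome c oxidase, had 10 tested common subunits, 3 higher and 7 lower, with a median of -0.02. Ndufa4, first described in complex I and now placed in complex IV, had the highest difference, 0.16 (SE 0.09, limma adjusted p = 0.611), with 10.50, 10.61 and 10.66 in sham and 10.61, 10.86 and 10.77 in TAC. Cox7a2l, a relative of Cox7a that was counted here with complex IV by its symbol, had the lowest. It measured 10.78, 11.10 and 10.84 in sham and 10.63, 10.78 and 10.70 in TAC. The difference was -0.21 (SE 0.11, limma adjusted p = 0.573), and its other probe sets gave -0.07 and -0.17 with overlapping groups. The groups of the representative probe set did not overlap, but sham A and TAC B were both at 10.78.

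Of the other common members of the isoform families of complex IV, besides Ndufa4 and Cox7a2l, 5 were tested. Their log2 differences were -0.07 (SE 0.07) for Cox6a1, -0.02 (SE 0.07) for Cox6b1, -0.004 (SE 0.07) for Cox7a2, 0.04 (SE 0.07) for Cox4i1 and 0.07 (SE 0.09) for Cox8a. The limma intervals of these 5 genes reached from -0.24 to 0.30. Cox6b1 spanned 0.09 over all 6 arrays and Cox7a2 spanned 0.10.

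Complex V, the ATP synthase, had 17 tested subunits, 5 higher and 12 lower, with a median of -0.04. The 5 subunits of F1, the catalytic head with its central stalk, were all below 0, with a median of -0.10. However, 1 of them was above 0 after quantile normalization, and 1 without sham C or TAC A. Atp5a1 of F1 was at -0.007 (SE 0.07), and its other tested probe sets gave 0.08 and -0.03. The 5 accessory subunits of the membrane part were all below 0 as reported and under both other scalings, with a median of -0.16, and 1 was above 0 without TAC C. The 3 genes for subunit c, Atp5g1, Atp5g2 and Atp5g3, had differences of -0.01 (SE 0.09), 0.05 (SE 0.10) and 0.06 (SE 0.08). The 4 peripheral stalk subunits ran from -0.06 for Atp5h to 0.09 for Atp5o.

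Atp5e had the largest difference of all common subunits and the smallest p. It encodes epsilon, a small subunit of the central stalk. It measured 10.89, 11.05 and 11.00 in sham and 10.75, 10.59 and 10.57 in TAC, so every TAC array was below every sham array. The means were 10.98 ± 0.08 in sham and 10.64 ± 0.10 in TAC (SD, n = 3), a difference of -0.34 (SE 0.09, 95% interval -0.56 to -0.13), or 1.27-fold lower. The unadjusted limma p was 0.00719 and the adjusted p was 0.516. Atp5e has 1 probe set, of the kind whose probes can match more than 1 transcript.

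Among the accessory subunits of the membrane part, Atp5j2, subunit f, measured 12.32, 12.28 and 12.53 in sham and 12.24, 12.18 and 12.11 in TAC. Its difference was -0.20 (SE 0.10, limma adjusted p = 0.56), and a second probe set gave -0.11. Atp5k, subunit e, which helps the synthase form dimers, measured 11.83, 12.04 and 11.95 in sham and 11.81, 11.71 and 11.81 in TAC, a difference of -0.16 (SE 0.09, limma adjusted p = 0.583). Another probe set of Atp5k gave -0.21, with an unadjusted limma p of 0.0279, and the last -0.08. In both genes the groups of the representative probe set did not overlap.

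Across the complexes, 3 common subunits had every TAC array above every sham array (4.11%) and 8 had every TAC array below (11%). Over all tested genes the shares were 8.78% above and 9.09% below. The 3 above were Ndufs4, Sdha and Ndufv2, and each had at least 1 other probe set of opposite sign. The 8 below were Atp5e, Cox7a2l, Atp5j2, Ndufc1, Atp5k, Ndufb11, Uqcrc2 and Ndufa5. Of these, Atp5e had no second probe set, Uqcrc2 had one at 0.12 and Ndufa5 one at 0.01, and all other tested probe sets of the rest were below 0.

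**Figure D3:**
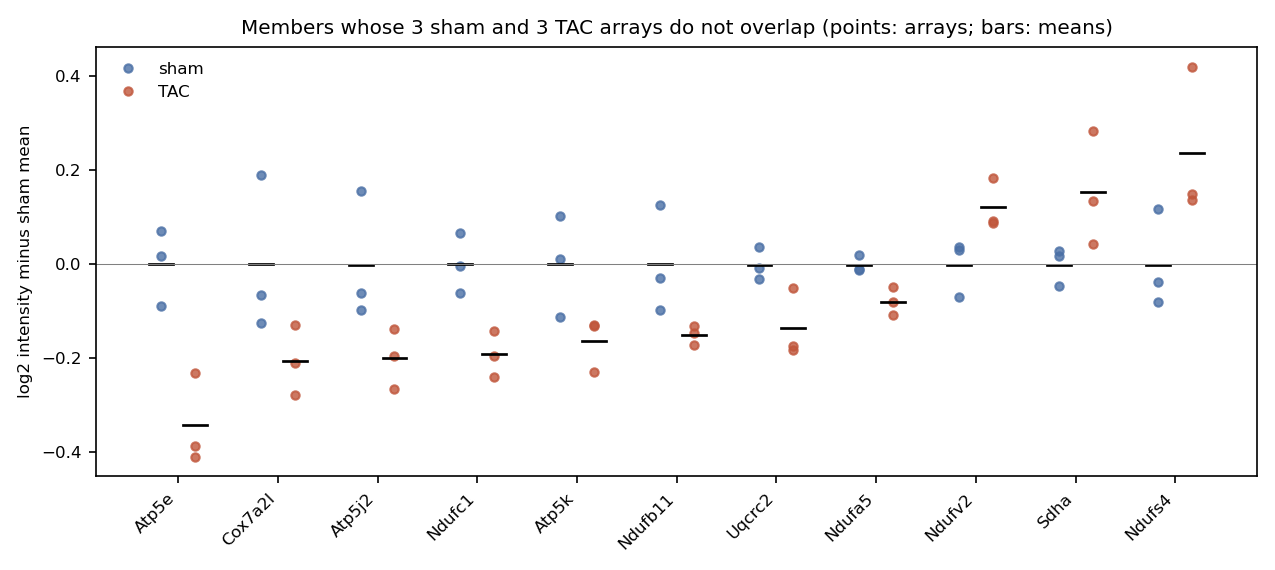
Each point is 1 array of a common subunit whose groups do not overlap, as log2 intensity minus the sham mean, and bars are group means. Atp5e has the widest separation, at -0.34, and in most others the nearest sham and TAC arrays are close together.

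Probe sets of the same gene gave a second view of the members. Of 83 members, 42 had several tested probe sets. In 26 of them all had the same sign, and in 16 they had both signs. The median span of the difference within a gene was 0.07 and the largest was 0.44 for Ndufs4. Of all 144 tested member probe sets, 3 had an unadjusted limma p under 0.05 (2.08%), against 1594 of all 17550 (9.08%), and all 3 were lower after TAC. In 19 of 73 common subunits the representative probe set was of a kind that can bind transcripts of related genes or pseudogenes, so their values may mix sources.

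The complex I assembly factors, which help to build the complex but are not part of it, lay mostly above 0, with no member called. Of 8, 6 were higher and 2 lower. The median was 0.06 and the range went from -0.16 for Ndufaf2 to 0.29 for Ndufaf4. Ndufaf4 measured 8.13, 7.70 and 7.79 in sham and 8.22, 8.18 and 8.09 in TAC, so the groups overlapped through sham A. Its limma adjusted p was 0.553 and its SE 0.13, and a second probe set of Ndufaf4 gave 0.007 (SE 0.15). Centred on the array medians, the median of the 8 was 0.01.

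Cox8b and Cox7a1, isoforms of muscle and brown fat, varied far more between animals than any common subunit, and Cox6a2 did not. Cox8b measured 4.98, 5.58 and 8.30 in sham and 4.66, 6.32 and 4.28 in TAC. It was highest on sham C and next on TAC B, and the groups overlapped. The difference was -1.20 (SE 0.95, 95% interval -3.49 to 1.09, limma adjusted p = 0.676), and -0.19 without sham C. Cox7a1 measured 5.95, 5.90 and 7.44 in sham and 5.73, 5.94 and 6.03 in TAC, high on sham C alone. Its difference was -0.53 (SE 0.41, 95% interval -1.53 to 0.46, limma adjusted p = 0.672), and -0.03 without sham C. Cox6a2, the muscle isoform, stayed between 2.63 and 2.67 on all 6 arrays, under the floor.

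Several markers of fat were highest on sham C as well. Ucp1, which uncouples respiration in brown fat, measured 3.98, 4.64 and 8.54 in sham and 3.72, 6.82 and 3.60 in TAC. Adipoq, an adipocyte hormone, measured 6.91, 6.34 and 9.02 in sham and 5.81, 8.04 and 6.24 in TAC. Both were highest on sham C and next on TAC B, like Cox8b, whereas Cox7a1 was not raised on TAC B. This order held for 2 of the 4 tested brown fat markers, Ucp1 and Cidea, and for the 3 tested general fat markers. Of the other tested brown fat markers, Ppargc1a measured 6.09 on sham C and 6.37 on sham A, and Fabp3 measured 8.55 to 8.74 in sham and 8.90 to 9.21 in TAC. The mean over 8 measured brown fat markers ran from 4.72 to 5.45 in sham and from 4.67 to 5.22 in TAC, and that over 6 general fat markers from 5.67 to 6.88 and from 5.38 to 6.50. Of the 8 brown fat markers, 4 were under the floor, among them Elovl3, Dio2 and Otop1. The part of this tissue in the values of Cox7a1 and Cox8b was not tested, and in RNA of whole ganglia fewer cells of a type and less RNA per cell cannot be told apart.

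Many skeletal muscle markers were highest on sham C too, in 10 of 16 measured and 4 of 6 tested. In all of these sham A came next, an order that neither Cox8b nor Cox7a1 showed. Of the other tested markers, Myh1 measured 8.03 on sham A and 6.52 on sham C. Myl1 measured 9.74, 9.46 and 10.01 in sham and 10.09, 10.09 and 9.96 in TAC. Acta1, skeletal muscle actin, measured 7.14, 4.52 and 9.18 in sham and 5.40, 4.72 and 4.99 in TAC. Myh4, a fast myosin heavy chain, measured 7.25, 2.65 and 8.17 in sham and 6.45, 3.49 and 2.55 in TAC, high on sham A and TAC A besides sham C. The mean over 16 muscle markers ran from 3.29 to 5.95 in sham and from 3.35 to 4.19 in TAC, and 10 of the 16 were under the floor. The part of muscle in the values of Cox7a1 and Cox8b was not tested. Leaving out sham C and TAC B together, the median difference of the common subunits was 0, against -0.02 with all arrays.

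**Figure D4:**
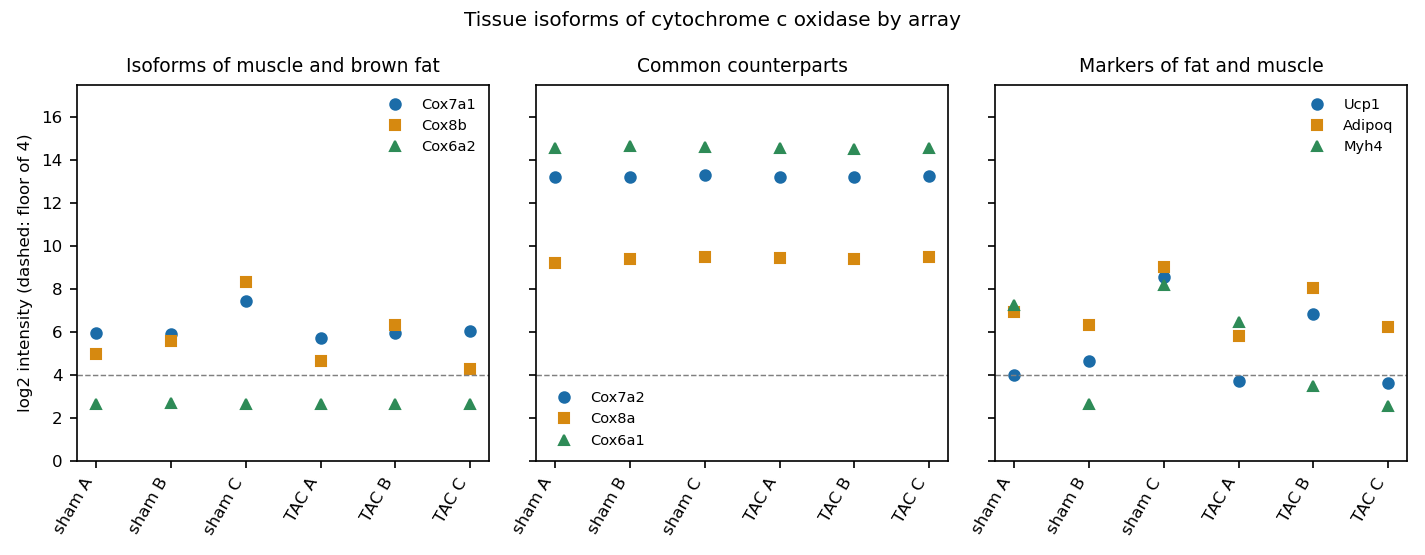
The panels show log2 intensity on each array for the tissue isoforms Cox7a1, Cox8b and Cox6a2, for their common counterparts Cox7a2, Cox8a and Cox6a1, and for Ucp1, Adipoq and Myh4, with the floor of 4 dashed. Cox8b reaches 8.30 on sham C together with Ucp1 at 8.54, while the common counterparts stay level on all arrays; heights of different genes are not comparable.

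Member probe sets under the floor leaned to 1 side. Of 36, 23 had all TAC values below all sham values (63.9%) and 0 the reverse. Over all probe sets under the floor with 1 symbol the shares were 69.4% below and 0.496% above, so the members did not stand apart. Array medians of the linear intensity lay between 7.96 and 8.44 in sham and between 7.81 and 7.85 in TAC. Separation of groups in dim probe sets, such as Cox6a2 or Ndufb4, was therefore not read as a difference of the gene.

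Other mitochondrial and glycolytic genes were read from 8 lists with several tested genes, whose medians lay between -0.05 and 0.07, and adjusted over all tested probe sets limma called 0 of them. The citric acid cycle feeds complexes I and II. Its list, which also held genes of pyruvate dehydrogenase and pyruvate carboxylase outside the cycle, had 16 tested genes with a median of 0.04. Among them Pdha1, a subunit of pyruvate dehydrogenase, measured 10.71, 10.72 and 10.74 in sham and 10.95, 10.96 and 10.89 in TAC. Its difference was 0.21 (SE 0.07), with an unadjusted limma p of 0.0217 and an adjusted p of 0.542. Every TAC array of Pdha1 was above every sham array. Pcx, pyruvate carboxylase, and Dlat, another pyruvate dehydrogenase subunit, differed by -0.29 (SE 0.13) and 0.29 (SE 0.14). Pdha1, Pcx and Dlat had the smallest p of the list, and none is an enzyme of the cycle itself. Among the cycle enzymes Suclg1 had the smallest unadjusted limma p, 0.204, with a difference of -0.21 (SE 0.15).

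The list of genes for cytochrome c, flavoproteins and ubiquinone synthesis (Coq and Pdss symbols) had 16 tested, 8 higher and 8 lower. Their median was -0.03. Of these 16, 3 had an unadjusted limma p under 0.05, against 8.76% of all tested genes, at -0.26 (SE 0.08) for Coq6, 0.37 (SE 0.12) for Coq3 and -0.21 (SE 0.08) for Coq2. The 16 tested assembly factors of cytochrome c oxidase had a median of 0.05, the 9 of complexes II, III and V -0.05, and the 7 of complex I outside the symbol rule 0.05. No gene of these 3 lists had an unadjusted limma p under 0.05. Those of smallest p were Cox20 at -0.20 (SE 0.10), Sdhaf2 at -0.12 (SE 0.09) and Tmem186 at 0.34 (SE 0.22).

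Regulators of mitochondrial biogenesis and of mitochondrial DNA had 15 tested genes, 9 higher and 6 lower, with a median of 0.07. Tfb2m, a mitochondrial transcription factor, differed by 0.17 (SE 0.08), Ppargc1b, a coactivator, by 0.47 (SE 0.25), and Tfam, which packages mitochondrial DNA, by 0.24 (SE 0.15), none with an unadjusted limma p under 0.05. The 10 tested membrane carriers had a median of 0.03, and Mpc1, a subunit of the mitochondrial pyruvate carrier, measured 11.11, 11.25 and 11.24 in sham and 11.38, 11.70 and 11.39 in TAC. The difference of Mpc1 was 0.29 (SE 0.11), with an unadjusted limma p of 0.0397 and an adjusted p of 0.546. The 13 tested glycolytic genes had a median of 0.03, and Aldoc, aldolase C, differed by 0.32 (SE 0.13).

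Of the subunits encoded by mitochondrial DNA, ND5 of complex I was the one tested. It measured 13.42, 13.54 and 13.68 in sham and 13.93, 14.11 and 13.78 in TAC, and every TAC array was above every sham array. The difference was 0.39 (SE 0.12, 95% interval 0.11 to 0.67), with an unadjusted limma p of 0.0141 and an adjusted p of 0.516. Every TAC array was above every sham array in 8.78% of all tested genes. The 33 nuclear-encoded subunits of complex I ran from -0.19 to 0.24 in the same comparison, with a median of -0.01. A single gene beside a median of 33 does not show a contrast between mitochondrial and nuclear genes. With 3 animals a group, an exact permutation test of 1 gene cannot give a p below 0.1.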

How the data were processed

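The data are 6 Affymetrix arrays, 3 sham and 3 TAC, each of 1 animal. The authors deposited 1 linear intensity per probe set and array, made with GCRMA, per the submitters' processing notes. GCRMA corrects background by probe sequence, normalizes between arrays and compresses dim values, and its version is not given in the sources used here. From 45101 probe sets, 64 controls were left out. Symbols came from GEO's platform annotation.

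Intensities were taken as log2 with no pseudocount. Probe sets with a mean under 4 were left out of tests (27487), and 17550 were fitted with limma 3.58.1 in R 4.3.3 (lmFit and eBayes, two-sided, Benjamini-Hochberg over all of them, threshold 0.05). Intervals are limma's at 95%.

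The members and lists were chosen with earlier results of these data known. Named were members with an unadjusted p under 0.05 or groups that did not overlap, the one of highest mean and those of highest and lowest difference in each complex, the Sdh subunits, the isoform families, and up to 3 genes of smallest p in each other list; other members named were chosen after their values were seen. Windows before gene starts came from RefSeq (GRCm38.p6).

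The fit was tested on simulated data, with 200 changes planted among 17550 probe sets. It called 0.8% of planted log2 changes of 0.3, 28.2% of 0.58, 82.7% of 1 and 98.1% of 2. Wrong calls averaged 5.05 per simulation. Changes of the size seen in the common subunits were thus seldom called in the simulation. Alternatives covered the floor, the variance model, array weights, scaling, several probe sets per gene, the title letters as a block, and arrays left out. Figures were drawn with matplotlib 3.10.9.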

Additional observations from a re-analysis of the deposited data

How the results depend on the processing

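Over 15 alternatives, limma called 0 of the 31 named members that were tested, with a lowest adjusted p of 0.238. The sign held in every alternative for 17 of them and changed in at least 1 for 14. With Cox7a1 and Cox8b left aside, the sign changed in 27 of 435 values. The median of the common subunits ran from -0.067 to 0.015 and was below 0 in 13 of 15. It was -0.067 with arrays centred on their medians, where complex I was at -0.056 and complex IV at -0.061, and array weights put complex V at -0.09. The cause of these shifts was not tested.

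Over all probe sets, 2 genes were called from the mean of all probe sets of a gene, and 0 to 1 probe sets with each array left out. At an unadjusted p under 0.05, 1594 probe sets and 2 members passed. Signs turned for Cox7a2 at 0.009 after quantile normalization, for Cox4i1 at -0.003 with centred arrays, and for Ndufs4 at -0.054 and Atp5h at 0.006 with the mean of probe sets. Without sham C and TAC B together, Cox6b1 was at 0.009 and Cox7a2 at 0.03.

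With each array left out in turn, the difference ran from -0.073 to 0.03 for Ndufb6, -0.147 to 0.015 for Sdhd, -0.075 to 0.049 for Sdhb and -0.085 to 0.026 for Sdhc. It ran from -0.071 to 0.125 for Uqcrb, -0.078 to 0.178 for Uqcr10, -0.032 to 0.106 for Atp5g2, -0.068 to 0.023 for Atp5g1, -0.002 to 0.137 for Cox8a, -0.036 to 0.008 for Cox6b1 and -0.026 to 0.026 for Cox7a2.

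Deviations of same-letter arrays correlated at 0.08, -0.003 and -0.17, and those of different-letter arrays at -0.133 to 0.139. The labels do not say what the title letters mark. Correlations over so few arrays cannot tell whether same-letter arrays were paired, and the main fit did not pair them. With the letter as a replicate block, 0 probe sets were called, the median of the common subunits was -0.02, and Atp5e had an unadjusted limma p of 0.0275 and an adjusted p of 0.602.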
